A study of Homo sapiens with 16 samples.

Results

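Jurkat is an established human line of T-cell acute lymphoblastic leukaemia (T-ALL), a cancer of immature thymocytes. The cells described here carried sh-SH2D1A, a short hairpin RNA directed against SH2D1A, and were sampled at day 8 and at day 10, with 2 libraries a day. These 4 libraries of 16 in the series were chosen by their labels, and their day 10 values were compared with their day 8 values. Jurkat cells with the control hairpin sh-NC, also with 2 libraries at each of the same days, served as the comparison, which makes 8 Jurkat libraries. The groups used here thus differ by hairpin and day, and all are the same line. The remaining 8 libraries come from the 6T-CEM line. The labels give no other treatment and describe the hairpins as transfected. The event that starts the count of days, and whether libraries of 1 group stem from separate cultures, are not stated in them. P-values therefore measure the spread between these libraries, which may be technical.

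SH2D1A encodes SAP, a small adaptor that binds the cytoplasmic tails of SLAM family receptors and recruits the kinase FYN to them in T cells. A growing leukaemia line spends much of its transcription on glycolysis, ribosome assembly, sterol synthesis and DNA replication. MYC drives many of the ribosome assembly genes, E2F factors drive the genes of S phase, and the genes of mitosis are switched on later in the cycle through cell cycle homology regions in their promoters. Developing thymocytes also carry a programme of their own, with the pre-T cell receptor, the polymerase that adds bases during receptor recombination, and CD1 molecules.

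RNA was sequenced and the authors deposited counts per gene, in 1 table for each line and day. Day 8 and day 10 of Jurkat thus come from different tables, so the day and anything that differed in handling between the tables cannot be told apart, in either arm. Total counts lay between 28586944 and 31400085 in the 4 sh-SH2D1A libraries, and 3 counts correspond to 0.0955 to 0.105 CPM (a gene's counts scaled to a common library total), a floor that covers counting error only. Mitochondrially encoded genes held 4.35 to 4.47% of the counts in these libraries. The libraries of a group differed from each other by more than sampling noise, with a median absolute log2 difference of 0.08 at day 8 and 0.12 at day 10. All 16 T lineage markers listed were tested, with summed levels of 3787 and 3859 CPM at day 8 and of 4598 and 4292 CPM at day 10. On a first principal component with 33.2% of the variance, the day 8 sh-SH2D1A libraries stood at 26.4 and 28.2 and the day 10 libraries at -0.905 and 0.968. The sh-NC libraries stood at -2.95 and -2.23 on day 8 and at -24.9 and -24.5 on day 10, so both arms moved in the same direction on this axis. On the second component, with 20.7% of the variance, the knockdown libraries stood at -0.966 and 1.54 on day 8 and at -19.7 and -19.3 on day 10, and the control libraries at 18 and 24.5 on day 8 and at -3.87 and -0.144 on day 10.

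Between day 8 and day 10, 1087 of 20099 tested genes rose in the knockdown cells (5.41%) and 1095 fell (5.45%), at an adjusted p under 0.05. These shares over all tested genes are the background for the counts of list members given below. Levels are given as CPM with TMM scaling, changes as log2 differences of day 10 over day 8 with their standard error (SE), and adjusted p-values, by the Benjamini-Hochberg method over all tested genes, come from the quasi-likelihood F-test of edgeR, with 2 libraries a day. Most changes were small. The median size of a called change was 0.43 on the log2 scale, or 1.34-fold, and 117 genes rose and 92 fell by 2-fold or more. The median change over all tested genes was 0.00. Calls depended on level: 0.986% of the genes under 1 CPM were called, against 26.0% of those at 100 CPM or more, and the median size of called changes fell from 2.27 to 0.34 on the log2 scale between these classes. With 1 of the 4 libraries left out, the count of 2182 called genes dropped to 635 without day 8 replicate 1, 611 without day 8 replicate 2, 1124 without day 10 replicate 1 and 781 without day 10 replicate 2.

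**Figure D1:**
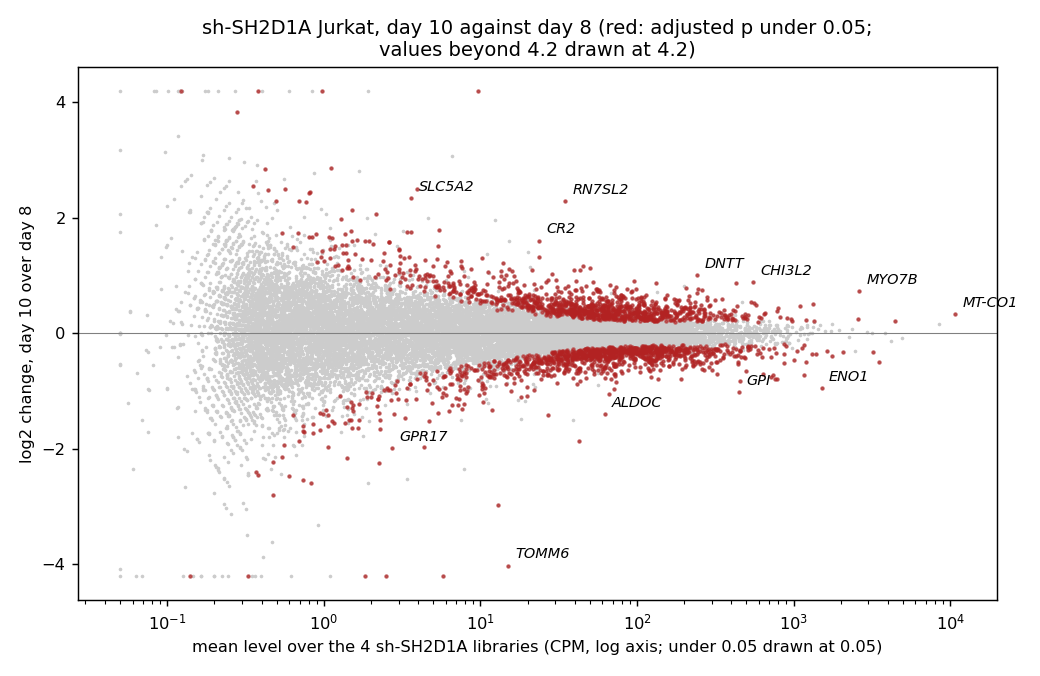
Log2 change of each tested gene between day 10 and day 8 in sh-SH2D1A Jurkat (vertical axis) against its mean level in CPM over the 4 libraries (horizontal log axis), with called genes in red and values beyond 4.2 drawn at 4.2. The 1087 risen and 1095 fallen genes lie mostly within 1 log2 unit of 0. The abundant genes among them, such as ENO1 and MYO7B, mostly changed by less than the rare ones. This holds for called genes only, and 0.986% of genes under 1 CPM were called, against 26% at 100 CPM or more.

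Base composition moved with the change. Over 11485 coding genes of at least 2 CPM with a transcript sequence, the knockdown change had a Spearman correlation of -0.17 with transcript GC content, across genes, which are not independent replicates. Among the 2297 genes of lowest GC content (31.3 to 40.8%), 10.6% rose and 4.05% fell, while among the 2297 of highest GC content (58.4 to 74.2%), 5.09% rose and 10.3% fell. The same correlation with sh-NC was -0.00. For transcript length the correlation was 0.11 with the knockdown change and 0.26 with the sh-NC change. The part of base composition and of transcript length in the results below was not tested.

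The targeted gene was low in the knockdown arm on both days. SH2D1A (ENSG00000183918, chrX:124227868-124373197 of hg38) stood at 53.3 and 48.8 CPM at day 8 and at 59.4 and 64.3 CPM at day 10 with sh-SH2D1A. The control libraries held 162 and 174 CPM at day 8 and 173 and 201 CPM at day 10. Every knockdown library was thus below every control library, and the 2 days of the knockdown arm did not overlap. The change of +0.28 ± 0.09 in the knockdown arm did not pass (adjusted p = 0.0737 by edgeR), while the DESeq2 Wald test called it (adjusted p = 0.02), and the control change was +0.16. SH2D1A lies within the span of STAG2 on the same strand, and how reads shared by the pair were assigned is not given in the sources used here. STAG2, a cohesin subunit, changed by +0.13 ± 0.08 (adjusted p = 0.339).

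CHI3L2, a chitinase-like protein without enzyme activity that is named in the title of the series, rose. It lies at chr1:111200771-111243440 and was counted at 394 and 379 CPM at day 8 and at 718 and 707 CPM at day 10. The days did not overlap, and the change was +0.88 ± 0.06, or 1.84-fold (adjusted p = 4.92e-05 by edgeR). DENND2D, which overlaps it on the other strand, changed by +0.40. In the control cells it went from 1164 and 1234 to 1795 and 1837 CPM, a change of +0.60 (adjusted p = 0.000443). The difference between the arms was +0.28 ± 0.08 and did not pass (adjusted p = 0.353). Both knockdown libraries of day 10 were below both control libraries of day 8. The other tested chitinase family gene, CHID1, stood at 42.9 and 45.0 CPM at day 8 and at 46.9 and 39.4 CPM at day 10.

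**Figure D2:**
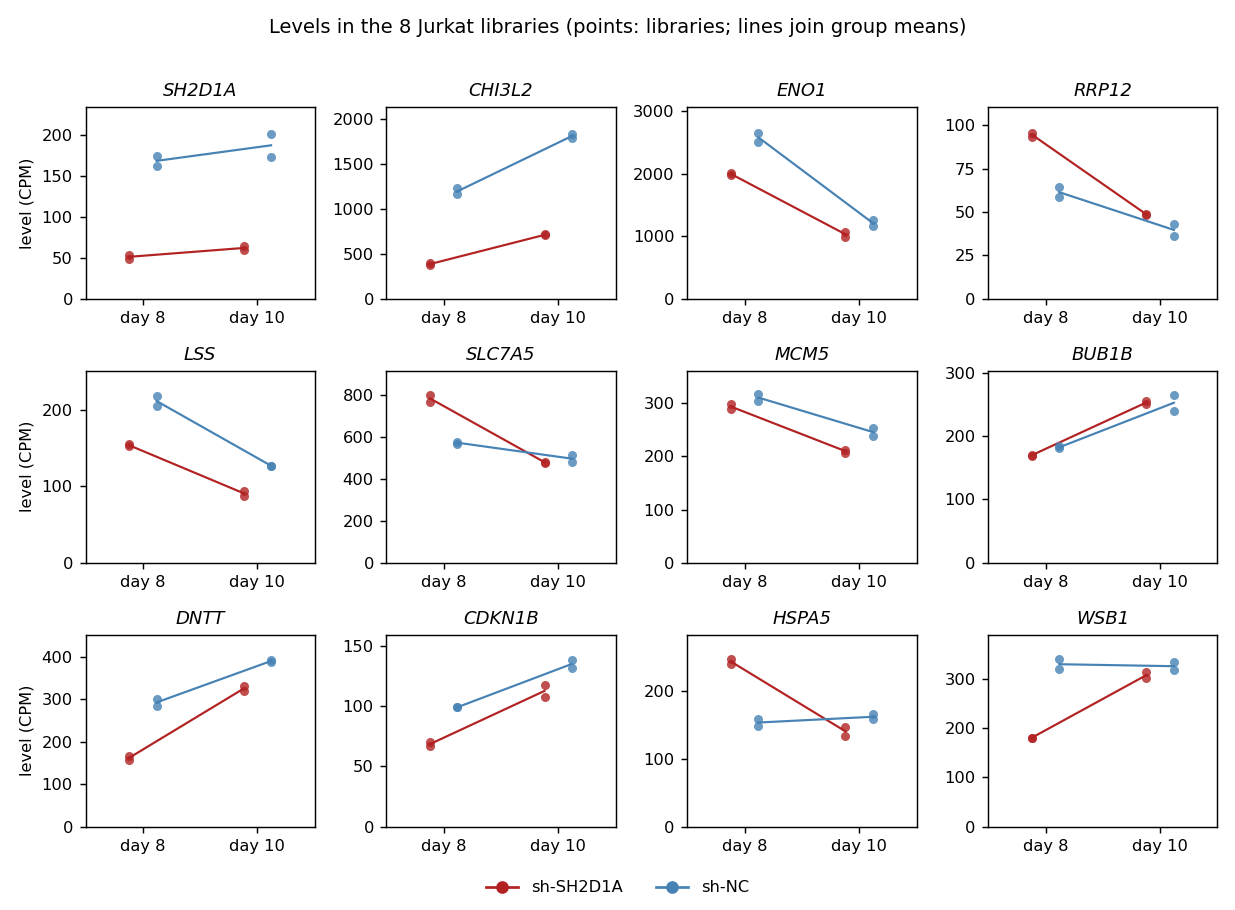
Levels of 12 genes in CPM in the 8 Jurkat libraries at day 8 and day 10, with sh-SH2D1A in red and sh-NC in blue; points are libraries and lines join the group means. SH2D1A and CHI3L2 are lower with sh-SH2D1A on both days, ENO1, RRP12, LSS and MCM5 fall in both arms, and HSPA5 and WSB1 move in the knockdown arm from 243 to 140 and from 180 to 307 CPM on average, with control changes of +0.07 and -0.02.

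Enzymes of glycolysis fell. Of 36 tested genes of glycolysis and the hypoxia response, 13 fell and 1 rose, and the list had a median change of -0.15. ENO1, the enolase that makes phosphoenolpyruvate, dropped from 2008 and 1979 CPM to 1069 and 989 CPM, a change of -0.95 ± 0.06 (adjusted p = 4.92e-05). GPI, the isomerase that turns glucose 6-phosphate into fructose 6-phosphate, went from 596 and 603 to 307 and 284 CPM (-1.02 ± 0.06). ALDOC, an aldolase, went from 91.7 and 89.3 to 34.9 and 33.8 CPM (-1.40 ± 0.07, adjusted p = 1.96e-05). The lowest day 8 library was far above the highest day 10 library for each of them. PGK1, phosphoglycerate kinase, fell by 0.80 and LDHA, which turns pyruvate into lactate, by 0.78 on the log2 scale, and PKM, ALDOA, TPI1, PGAM1, the hexokinase HK2 and the glucose transporter SLC2A1 also fell. The call of SLC2A1 ended without day 8 replicate 2 or day 10 replicate 2 (adjusted p = 0.0692 and 0.0587). GAPDH fell by 0.33 on the log2 scale, a call that ended without day 8 replicate 1 (adjusted p = 0.0622). The risen member was NDRG1, a stress-responsive gene, at +0.33 ± 0.08, and its call ended without any 1 of the 4 libraries (adjusted p between 0.0811 and 0.218). Other genes of the hypoxia response did not pass, with VEGFA at +0.11, PDK1 at +0.17, BNIP3 at +0.05 and HIF1A itself at +0.05. With sh-NC 19 members of the list fell, with a median of -0.34, ENO1 at -1.09 and PGK1 at -1.02. For no member did the difference between arms pass.

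Genes of ribosome assembly and nucleotide supply, known as MYC targets, fell almost as a block. Of 39 tested members 33 fell and none rose, with a median of -0.49 and a range from -0.96 to -0.10. The 6 that did not pass were BYSL, FBL, GAR1, IMPDH2, PPAT and WDR12, all with values below 0. The count of fallen members lay between 19 and 28 with 1 knockdown library left out, the lowest being without day 10 replicate 2. RRP12, a nucleolar export factor of both ribosomal subunits, dropped from 95.7 and 93.5 CPM to 49.0 and 48.2 CPM, a change of -0.96 ± 0.09 (adjusted p = 0.00023). PES1 went from 129 and 128 to 81.0 and 80.7 CPM (-0.67 ± 0.06) and NOLC1, a nucleolar phosphoprotein, from 311 and 315 to 199 and 208 CPM (-0.62 ± 0.06). NCL, nucleolin, one of the most abundant members, went from 1007 and 1035 to 727 and 710 CPM (-0.51 ± 0.05). In each case the libraries of the 2 days were well apart. ODC1 and SRM, which make polyamines, fell by 0.50 and 0.77 on the log2 scale, and the purine enzyme PAICS by 0.39. NPM1, nucleophosmin, fell by 0.35, a call that ended without day 8 replicate 1 (adjusted p = 0.0786) or day 10 replicate 2 (adjusted p = 0.0636). MYC itself stood at 282 and 293 CPM at day 8 and at 316 and 303 CPM at day 10, a change of +0.11 ± 0.06 that did not pass (adjusted p = 0.307). With sh-NC 31 members fell and none rose, with a median of -0.46.

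The proteins of the finished ribosome did not follow the assembly factors. None of 75 tested cytosolic ribosomal protein genes was called, with a median of +0.03 and a range from -0.24 to +0.19. At an unadjusted p under 0.05, 2 were higher and 1 lower, and the DESeq2 Wald test called 2 higher and 0 lower. RPL3 stood at 1663 and 1632 CPM at day 8 and at 1917 and 1769 CPM at day 10 (+0.16 ± 0.06), and RPLP0 at 1934 and 1879 against 2080 and 1912 CPM. Ribosomal protein genes have many processed copies in the genome, and how reads were divided among them is not given in the sources used here.

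Many MYC targets carry an E-box in their promoter. In RefSeq promoter windows (GRCh38.p14, 250 bases before to 50 after the start), the E-box CACGTG, which reads the same on both strands, was found in 10 of 32 members of the ribosome assembly list with a window (31.2%) and in 7.43% of all 27305 windows. It was in 7 of the 27 fallen members and in 3 of the 5 that did not pass. The stretches below, for the pair of fallen members with the lowest adjusted p and an E-box wholly before the start, show it in capitals (chr1:11060192-11060237, minus strand, and chr12:101280075-101280104, plus strand). A match is a description of these letters, not a site.
SRM: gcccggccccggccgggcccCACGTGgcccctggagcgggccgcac
UTP20: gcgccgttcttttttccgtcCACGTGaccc

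Genes of sterol and fatty acid synthesis fell as well. Of 33 tested members 14 fell and none rose, with a median of -0.24, and the count lay between 7 and 10 with 1 knockdown library left out, lowest without either day 8 library. LSS, which closes the sterol ring from squalene epoxide, dropped from 155 and 153 CPM to 94.0 and 88.0 CPM (-0.76 ± 0.06, adjusted p = 0.000137). DHCR7, which acts at the end of cholesterol synthesis, fell by 0.62 on the log2 scale. HMGCS1, at the entry to the pathway, went from 418 and 391 to 246 and 250 CPM (-0.70 ± 0.08). The days did not overlap for these genes. The desaturase SCD at -0.15 ± 0.06 and INSIG1 at +0.09 ± 0.05 did not pass. ABCG1, an exporter of cholesterol and a target of liver X receptors, rose from 28.8 and 27.7 to 52.1 and 53.6 CPM (+0.90 ± 0.07, adjusted p = 0.000137). It was the called member among 9 tested genes of sterol efflux. With sh-NC 11 synthesis genes fell, with a median of -0.16, and ABCG1 changed by +0.59.

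Genes of amino acid uptake and of the ATF4 response fell in part. Of 31 tested members 9 fell and 1 rose, with a median of -0.09. SLC7A5, the light chain of the large neutral amino acid transporter, dropped from 769 and 803 CPM to 478 and 483 CPM (-0.71 ± 0.06, adjusted p = 0.000137), and its partner SLC3A2 went from 263 and 274 to 200 and 183 CPM (-0.49 ± 0.07). SLC7A11, the cystine importer, fell by 1.08 ± 0.12 on the log2 scale, GARS1, a transfer RNA synthetase, by 0.62, and PSAT1, of serine synthesis, by 0.48. Other members did not pass, with ASNS at +0.04, PHGDH at +0.01, DDIT3 at -0.35 and ATF4 itself at -0.05 ± 0.06. The risen member was DDIT4, an inhibitor of mTORC1, at +0.48 ± 0.07. In the control cells 6 members of this list rose and 3 fell, with a median of +0.09, and SLC7A5 changed by -0.21 (adjusted p = 0.0608). No difference between arms passed for a member, SLC7A5 included at -0.50.

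Thioredoxin and glutathione genes also fell. Of 20 tested genes of glucose sensing and redox defence 6 fell and none rose, with a median of -0.31. TXNRD1, thioredoxin reductase, dropped from 583 and 572 CPM to 324 and 331 CPM (-0.82 ± 0.06, adjusted p = 8.42e-05). PRDX1, a peroxiredoxin, went from 289 and 274 to 203 and 195 CPM (-0.50 ± 0.06), and OSGIN1 from 10.5 and 8.09 to 4.11 and 3.71 CPM (-1.25 ± 0.20). These genes kept the 2 days apart. Control cells had 5 fallen members, with a median of -0.20 and TXNRD1 at -0.59.

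Chaperones of the endoplasmic reticulum and of the cytosol fell in the knockdown cells. Of 21 tested genes of the unfolded protein response 6 fell and 1 rose, with a median of -0.21, while in the control cells 1 rose and the median was -0.01. HSPA5, the BiP chaperone of the endoplasmic reticulum (chr9:125234853-125241330), dropped from 247 and 240 CPM to 147 and 134 CPM, a change of -0.80 ± 0.07 (adjusted p = 0.000146). The control libraries held 149 and 158 CPM at day 8 and 166 and 158 CPM at day 10. The knockdown cells were thus above the control cells at day 8 and below them at day 10, and the difference between the changes, -0.87 ± 0.09, passed the test of the difference itself (adjusted p = 0.0144). PDIA4, a disulfide isomerase, went from 154 and 150 to 111 and 110 CPM (-0.45 ± 0.06), and the risen member was EDEM1, which directs misfolded proteins to degradation, at +0.30. HSP90B1 (-0.30), MANF (-0.44), SDF2L1 (-0.63), CALR (-0.27) and EDEM1 were called, and each of these calls ended without either day 8 library or without day 10 replicate 2, with adjusted p-values up to 0.15. Without 1 of those 3 libraries 2 members of the list fell, and 6 fell without day 10 replicate 1. XBP1, a transcription factor of this response, stood at -0.94 and did not pass.

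Among 19 tested heat shock genes 9 fell and 1 rose, with a median of -0.22, against 3 fallen and 4 risen in the control cells, with a median of +0.01. HSPA8, the constitutive cytosolic HSP70, dropped from 1198 and 1141 CPM to 864 and 835 CPM (-0.46 ± 0.05, adjusted p = 0.000929), where the control change was +0.01. HSPD1 and HSPE1, the mitochondrial chaperonin pair, fell by 0.41 and 0.71 on the log2 scale and HSP90AB1 by 0.36, and these 3 fell in the control cells too. BAG3, a co-chaperone, was the risen member at +0.45, and its call ended without day 8 replicate 2 (adjusted p = 0.0709). With 1 library left out, 5 to 8 heat shock genes fell, the lowest count being without day 8 replicate 2. The inducible genes HSPA1A at +0.37 and HSPA1B at +0.46 did not pass, and they are near-identical copies whose reads cannot be assigned with certainty. The difference between arms did not pass for any heat shock gene.

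The endoplasmic reticulum stress response element, CCAAT followed by 9 bases and CCACG, was found on either strand in 6 of 20 unfolded protein response members with a window (30%) and in 0.0806% of all windows. It was in 3 of the 7 called members and in 3 of the 13 that did not pass. It is shown in capitals, on either strand and with the bases between its parts, for the pair of called members with the lowest adjusted p that hold it (chr9:125241371-125241429, minus strand, and chr12:103930196-103930359, plus strand).
HSPA5: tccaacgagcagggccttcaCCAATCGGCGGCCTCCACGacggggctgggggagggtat
HSP90B1: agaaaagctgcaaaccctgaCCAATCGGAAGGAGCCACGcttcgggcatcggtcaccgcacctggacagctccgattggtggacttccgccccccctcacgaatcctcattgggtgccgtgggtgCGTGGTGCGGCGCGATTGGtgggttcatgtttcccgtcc

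Cell cycle genes moved in opposite directions by phase. Of 42 tested genes of G2 and mitosis 25 rose and none fell, with a median of +0.31, and 41 of the 42 had a value above 0. Of 43 tested S phase genes 17 fell and 1 rose, with a median of -0.19. BUB1B, a kinase of the spindle checkpoint, rose from 171 and 169 CPM to 251 and 256 CPM (+0.58 ± 0.06, adjusted p = 0.000699). DLGAP5, of the mitotic spindle, went from 77.5 and 76.4 to 109 and 107 CPM (+0.49 ± 0.06), CDC25B, a phosphatase that activates CDK1, from 167 and 171 to 234 and 226 CPM (+0.44 ± 0.06), and TOP2A, topoisomerase II, from 672 and 671 to 886 and 937 CPM (+0.44 ± 0.07). The days were apart for each of these 4 genes. CDK1 at +0.23, PLK1 at +0.18 and CDC20 at -0.02 did not pass. MKI67 rose from 1069 and 1115 to 1396 and 1702 CPM, a call that ended without either day 8 library or without day 10 replicate 2 (adjusted p up to 0.0964).

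Of the S phase genes, MCM5, a subunit of the replicative helicase, dropped from 299 and 289 CPM to 213 and 207 CPM (-0.49 ± 0.06, adjusted p = 0.00107). MCM2, MCM3, MCM4 and MCM6, the other called subunits, changed by -0.36, -0.32, -0.41 and -0.40, and MCM7 at -0.22 ± 0.07 did not pass. CDC6, which loads the helicase, went from 145 and 137 to 103 and 101 CPM (-0.46 ± 0.06), SLBP, which binds histone messages, from 170 and 169 to 124 and 119 CPM (-0.48 ± 0.06), and the sliding clamp PCNA fell by 0.39 on the log2 scale. The risen member was the licensing factor CDT1, from 186 and 194 to 253 and 244 CPM (+0.39 ± 0.07). The calls of MCM2, PCNA and CDT1 ended without day 8 replicate 1 (adjusted p = 0.0523, 0.0546 and 0.0802), and that of MCM3 without day 8 replicate 2 or day 10 replicate 2 (adjusted p = 0.0997 and 0.0664). TYMS, RRM1 and RRM2, which supply nucleotides, stood at -0.07, -0.04 and -0.05. With 1 knockdown library left out, 9 to 18 G2 and mitosis genes rose and 8 to 12 S phase genes fell, with the lowest count of mitosis genes without day 8 replicate 2 and the lowest counts of S phase genes without either day 8 library. With sh-NC 27 G2 and mitosis genes rose (median +0.35), and 8 S phase genes fell and 1 rose (median -0.05). In bulk RNA a change in the share of cells in a phase and a change in the RNA of each cell cannot be told apart.

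The promoters of the members differed in the letters they hold. The cell cycle homology region TTTGAA, on either strand, was in 23 of 35 G2 and mitosis members with a window (65.7%), against 15.4% of all windows, and in 12 of 22 risen members and 11 of 13 that did not pass. TTTGGCGC or TTTCCCGC, letters bound by E2F factors, were on either strand in 18 of 36 S phase members (50%), against 2.31% of all windows, and in 9 of 14 called members and 9 of 22 that did not pass. The letters were thus not more frequent among the called mitosis genes than among the rest of that list. The stretches show them in capitals (chr15:40161026-40161068, plus strand; chr14:55191669-55191743, minus strand; chr2:135876506-135876615, minus strand; and chr20:5126654-5126701, minus strand).
BUB1B: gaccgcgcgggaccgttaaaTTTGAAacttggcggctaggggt
DLGAP5: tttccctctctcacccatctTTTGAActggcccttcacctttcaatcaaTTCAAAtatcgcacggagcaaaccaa
MCM6: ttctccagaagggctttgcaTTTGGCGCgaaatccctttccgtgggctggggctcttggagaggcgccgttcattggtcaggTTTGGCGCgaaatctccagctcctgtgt
PCNA: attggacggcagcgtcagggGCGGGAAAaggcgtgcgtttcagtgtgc

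Among 13 tested inhibitors and cyclins of G1 control 6 rose and 2 fell. CDKN1B, the p27 inhibitor, rose from 67.3 and 70.0 CPM to 118 and 108 CPM (+0.72 ± 0.07, adjusted p = 0.00023), with CDKN1C at +0.85, CDKN2C at +0.31 and CDKN2D at +0.38. CCND3, the D cyclin of T cells, rose from 426 and 437 to 641 and 617 CPM (+0.54 ± 0.06). CDK4 fell by 0.37 on the log2 scale. CDK6 went from 2337 and 2270 to 1704 and 1988 CPM, a change of -0.32 that was -0.21 and no longer called without day 10 replicate 1 (adjusted p = 0.216), and its call also ended without either day 8 library (adjusted p = 0.185 and 0.135). The calls of CDKN2C and CDKN2D ended without any 1 of the 4 libraries, and that of CDKN1C without any but day 8 replicate 2 (adjusted p between 0.0538 and 0.217). With 1 library left out, 2 or 3 members of this list rose. CDKN1A, the p21 inhibitor, stood at -0.18 and did not pass. With sh-NC CDKN1B changed by +0.45 and CCND3 by +0.39. Of 14 tested histone genes none was called by edgeR, with 1 higher and 1 lower at an unadjusted p under 0.05 and the same counts by DESeq2.

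**Figure D3:**
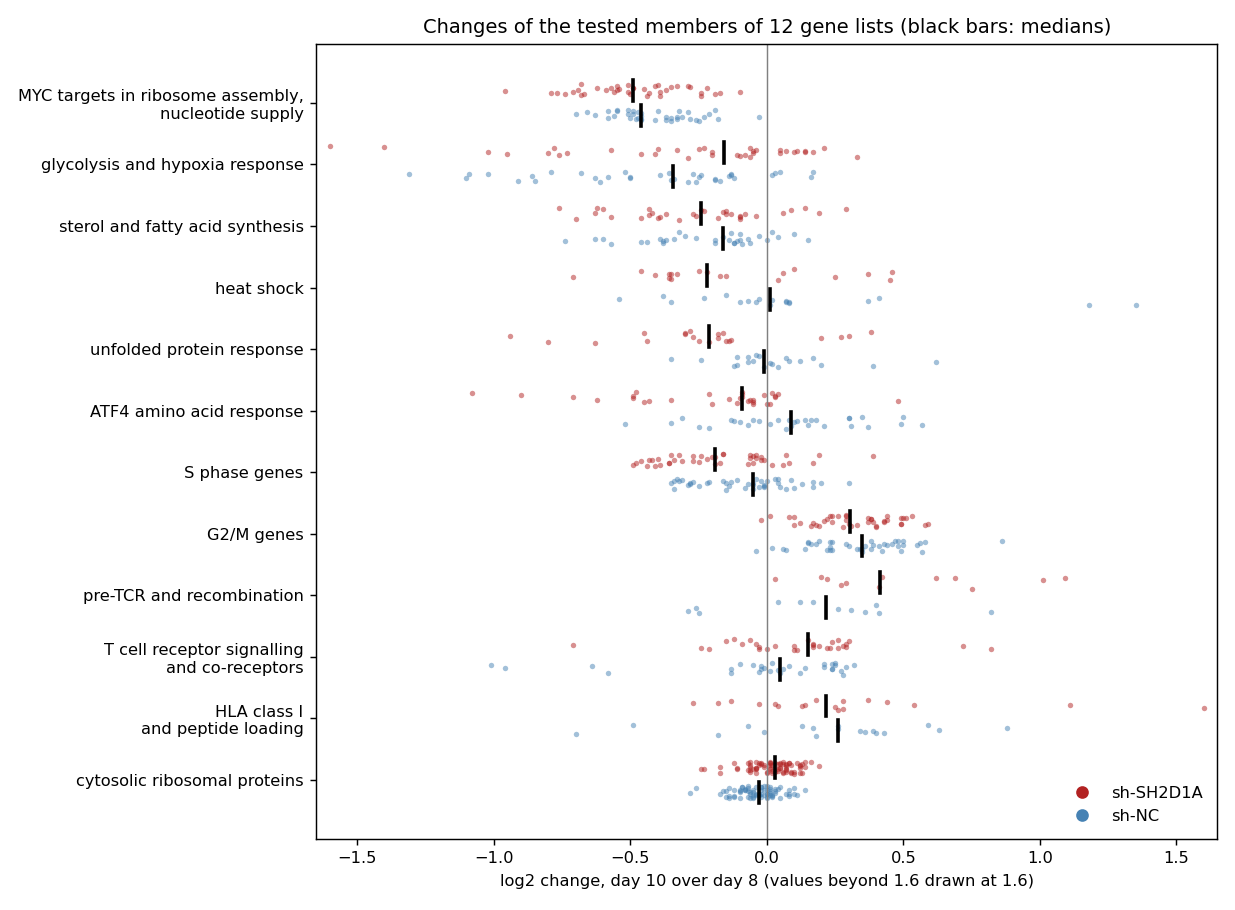
Log2 change of day 10 over day 8 for the tested members of 12 gene lists (rows), with sh-SH2D1A in red above and sh-NC in blue below; values beyond 1.6 are drawn at 1.6, points are genes and black bars are medians. Ribosome assembly genes lie below 0 in both arms (medians -0.49 and -0.46) and G2 and mitosis genes above 0 (+0.31 and +0.35), while heat shock (-0.22 and +0.01) and unfolded protein response genes (-0.21 and -0.01) have a lower median in the knockdown arm.

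Genes of the immature thymocyte rose. Of 12 tested genes of the pre-T cell receptor, recombination and CD1, 8 rose and none fell, with a median of +0.42, and 6 to 8 rose with 1 knockdown library left out. DNTT, terminal transferase (chr10:96304396-96338564), rose from 167 and 156 CPM to 330 and 319 CPM, a change of +1.01 ± 0.06 (adjusted p = 4.92e-05). PTCRA, the pre-T alpha chain, went from 26.1 and 29 to 62.7 and 55.0 CPM (+1.09 ± 0.11), ARPP21, a gene of double positive thymocytes, from 190 and 181 to 301 and 297 CPM (+0.69 ± 0.06), and CD1B from 51.1 and 48.9 to 80.6 and 73.5 CPM (+0.62 ± 0.07). Each of them kept the days apart. IGLL1, a surrogate light chain gene, rose by +0.75 ± 0.09, CD1E by +0.41, CD1D by +0.42 and CD1A by +0.22. The call of CD1D ended without day 8 replicate 2 (adjusted p = 0.0578) and that of CD1A without any 1 of the 4 libraries (adjusted p between 0.106 and 0.227). RAG1 at +0.03 and RAG2 at +0.27, the recombinase pair, did not pass. Control cells gave 4 rises and 1 fall, with a median of +0.22 and DNTT at +0.41. The difference between arms for DNTT, +0.59 ± 0.09, did not pass (adjusted p = 0.0883).

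Of 31 tested genes of T cell receptor signalling 8 rose and none fell, with a median of +0.15, and 6 of the 16 T lineage markers rose. Of these markers 1 or 2 rose with 1 library left out, and 2 with all 16 libraries in the fit. Among the 8 were CD4 (13.2 and 14.0 against 23.4 and 21.3 CPM), the kinase ZAP70 (+0.26), the phosphatase PTPRC (+0.29), and CD5, CD2, CD3E and CD28 at +0.23 to +0.30. No member was called without either day 8 library, 1 was without day 10 replicate 1 and 2 without day 10 replicate 2. The kinase LCK at +0.15 ± 0.06 and the chains CD3D, CD3G and CD247 did not pass. Of 25 tested transcription factors of thymocytes and T-ALL 4 rose. GATA3, needed for T lineage commitment, went from 74.1 and 71.8 to 124 and 124 CPM (+0.77 ± 0.07, adjusted p = 0.000214), where the control change was +0.41. TOX at +0.34, LEF1 at +0.26 and IKZF1 at +0.29 were called with all libraries, and each of these calls ended without either day 8 library (adjusted p up to 0.125). TCF7, BCL11B, TAL1 and MYB, at +0.11, +0.14, +0.03 and +0.05, did not pass.

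Among 18 tested NOTCH pathway genes 2 rose, HES1 from 15.1 and 14.9 to 22.2 and 23.8 CPM (+0.61 ± 0.12) and DTX1 from 125 and 130 to 170 and 167 CPM (+0.40 ± 0.06). Both are direct targets of NOTCH. The call of HES1 ended without either day 8 library or without day 10 replicate 2 (adjusted p up to 0.0795), and that of DTX1 without day 8 replicate 1 (adjusted p = 0.0523). NOTCH1 at +0.18 ± 0.08 and NOTCH3 at +0.11 ± 0.08 did not pass, and both rose in the control cells, at +0.57 and +0.38. In the control cells 6 members rose, and the difference between arms passed for none of the 18. LUNAR1, a long non-coding RNA known as a NOTCH target in T-ALL and chosen after its values were seen, rose from 25.1 and 25.6 to 53 and 54.8 CPM (+1.09 ± 0.08), where the control change was +0.27 (adjusted p = 0.0794). The difference for LUNAR1 was +0.82 ± 0.11 and did not pass (adjusted p = 0.0801).

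Among receptors and partners of the targeted adaptor some rose. Of 14 tested SLAM receptors and SAP partners 4 rose and none fell, with a median of +0.25. INPP5D, the lipid phosphatase SHIP1, rose from 47.0 and 49.9 CPM to 84.9 and 88.5 CPM (+0.84 ± 0.07, adjusted p = 0.000214) and changed by +0.76 in the control cells. CD48, the ligand of the receptor CD244, went from 24.6 and 21.3 to 38.0 and 35.5 CPM (+0.68 ± 0.10), with a control change of +0.09, and the difference between arms did not pass. CD84 rose by +0.44 and DGKA, a diacylglycerol kinase, by +0.29. The calls of CD84 and DGKA ended without either day 8 library or without day 10 replicate 2, and that of DGKA also without day 10 replicate 1 (adjusted p up to 0.154). SLAMF6 at -0.16, LY9 at +0.23, FYN at +0.16 and PTPN11 at +0.02 ± 0.07 did not pass.

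Cytokine receptor genes and their STAT factors gave 4 rises and 1 fall among 22 tested. STAT5B rose from 98.2 and 99.4 CPM to 134 and 132 CPM (+0.43 ± 0.07, adjusted p = 0.00399), with a control change of +0.06. STAT5A went from 83.3 and 50.2 to 131 and 120 CPM (+0.91 ± 0.17), and the change was +0.59 without day 8 replicate 2, its lowest library. IL2RB fell from 3.30 and 2.85 to 1.25 and 1.32 CPM, a call that ended without any 1 of the 4 libraries (adjusted p between 0.0767 and 0.128), and the same held for the rises of STAT3 at +0.23 and IL2RG at +0.24 (adjusted p between 0.0509 and 0.225). The STAT5 target CISH stood at -0.08 and did not pass.

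Among 18 tested genes of HLA class I and peptide loading 6 rose and 1 fell, with a median of +0.21. HLA-E, a ligand of natural killer cell receptors, rose from 10.3 and 9.09 CPM to 20.8 and 21 CPM (+1.11 ± 0.11, adjusted p = 0.000423), where the control change was +0.59. HLA-B went from 61.1 and 57.6 to 83.3 and 77.8 CPM (+0.44 ± 0.09) and B2M, the shared light chain, from 249 and 231 to 295 and 276 CPM (+0.25 ± 0.07). The calls of HLA-B and HLA-C (+0.37) ended without either day 8 library or without day 10 replicate 1, and that of B2M without any 1 of the 4 libraries (adjusted p up to 0.292). With 1 library left out 1 to 3 members rose, and the lowest count was without day 8 replicate 1. HLA genes resemble each other, so reads may be split among them. The fallen member was the chaperone CALR, given above. Of 34 tested interferon response genes 3 rose, where 5.41% of all tested genes rose. They were STAT2 from 54.0 and 50.2 to 78.7 and 75.2 CPM (+0.56 ± 0.08), IFI16 at +0.25 and RIGI at +0.40. The calls of IFI16 and RIGI ended without any 1 of the 4 libraries (adjusted p between 0.0572 and 0.261).

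ERK, NF-kB and clock genes gave calls that were fewer with any 1 library left out. Of 32 tested ERK targets and immediate early genes 3 rose: FOS from 3.33 and 2.95 to 6.58 and 5.97 CPM (+1.00 ± 0.22), DUSP6, a phosphatase of ERK, from 1.71 and 2.50 to 3.85 and 4.83 CPM (+1.04 ± 0.27), and CD69 from 16 and 14.0 to 22.7 and 20.5 CPM (+0.53 ± 0.12). No member was called without day 8 replicate 1, day 8 replicate 2 or day 10 replicate 1, and 1 was called without day 10 replicate 2. Of 21 tested NF-kB genes 3 rose and 4 fell, where 5.41% of all tested genes rose and 5.45% fell. Among the called members were the feedback inhibitor TNFAIP3 at +0.36 ± 0.06 and TRAF3 at -0.30 ± 0.06. No NF-kB member was called without either day 8 library, and 2 were without day 10 replicate 2. Of 17 tested clock genes 5 rose and 1 fell, the called changes running from -0.33 for NFIL3 to +0.54 for DBP, and 0 or 1 was called as risen with 1 library left out.

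Of 25 tested p53 targets 3 rose and 2 fell, where 5.41% of all tested genes rose and 5.45% fell. TP53INP1 rose from 8.38 and 8.89 CPM to 17.9 and 18.6 CPM (+1.08 ± 0.11), DDB2, a DNA damage sensor, from 63.0 and 62.8 to 95.9 and 95.1 CPM (+0.60 ± 0.06), and CCNG1 from 86.0 and 81.8 to 120 and 125 CPM (+0.54 ± 0.07). The fallen members were AEN at -0.39 and TIGAR at -0.47. The call of TIGAR ended without any 1 of the 4 libraries, and that of AEN without day 8 replicate 2 or day 10 replicate 2. With a library left out TIGAR changed by -0.49 to -0.46 and AEN by -0.44 to -0.34. Control cells had 3 risen and no fallen targets. In the knockdown cells MDM2 at -0.09 ± 0.08 and CDKN1A did not pass. The BCL2 family gave BMF at +0.53 and BCL2 at +0.30 among 15 tested, and both calls ended without either day 8 library or without day 10 replicate 2 (adjusted p up to 0.143), with MCL1 at +0.03 ± 0.06.

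Nuclear genes of the respiratory chain mostly stayed near 0, with a median of -0.08, while 2 mitochondrially encoded genes rose and 2 fell. Of 40 tested nuclear subunits 1 fell, ATP5MC1, a ring subunit of ATP synthase, from 62.7 and 61.6 CPM to 42.2 and 39.1 CPM (-0.61 ± 0.09). Of 13 mitochondrially encoded genes MT-CO1 rose from 9468 and 9496 to 11986 and 11963 CPM (+0.34 ± 0.05, adjusted p = 0.00433) and MT-CO2 was called at +0.21, while MT-ND1 at -0.36 and MT-ND2 at -0.39 fell. The calls of MT-CO2 and MT-ND1 ended without any 1 of the 4 libraries (adjusted p between 0.0511 and 0.23), and that of MT-ND2 without either day 8 library or day 10 replicate 2 (adjusted p up to 0.068).

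Effector and matrix genes were mostly low. The counts in this paragraph stand beside 5.41% of all tested genes that rose and 5.45% that fell. Of 23 effector T cell genes 9 were tested and 1 was called, EOMES, a transcription factor of cytotoxic cells, which fell from 7.23 and 8.36 CPM to 3.44 and 4.19 CPM, and this call ended without day 10 replicate 1 or day 8 replicate 2 (adjusted p = 0.0668 and 0.0833). Of 21 tested matrix genes 2 rose and 2 fell, and the calls of all 4, LAMB1, VCAN, FN1 and COL6A3, ended without either day 8 library (adjusted p up to 0.244). Of 24 tested homing and adhesion genes 3 rose, of which 1 did without day 8 replicate 2 or day 10 replicate 2 and 2 did without day 8 replicate 1. Of 26 tested lysosome and autophagy genes 2 rose and 2 fell. With any 1 of the 4 libraries left out none of them rose, and none fell except 1 without day 8 replicate 1. With the replicate number as a block none rose and 2 fell.

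Markers of other cell types stayed low. Of 10 B cell markers 5 were tested, with summed levels of 64.3 and 66.2 CPM at day 8 and of 74.4 and 85.6 CPM at day 10, and IGHM was at 0 in all 4 libraries. CD79A was the called member, at 43.7 and 43.7 against 60.5 and 54.0 CPM (+0.39), and its call ended without any 1 of the 4 libraries (adjusted p between 0.0517 and 0.161). Of 12 myeloid markers 5 were tested, with summed levels of 14.5 and 14.6 CPM at day 8 and 11.1 and 10.5 CPM at day 10, and FCGR1A, S100A8 and S100A9 were at 0. CEBPA was the called myeloid member, at -0.62, and its call ended without any 1 of the 4 libraries. Epithelial and packaging cell markers summed to between 9.87 and 15.3 CPM, with CDH1, EPCAM and KRT19 at 0. Among erythroid markers HBB and HBG1 were at 0, while TFRC, the transferrin receptor of all growing cells, fell from 502 and 489 to 376 and 387 CPM (-0.38 ± 0.06).

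The largest rises were of genes at low levels. SLC5A2, a kidney glucose transporter, went from 1.11 and 1.28 CPM to 6.13 and 5.97 CPM (+2.34 ± 0.21, or 5.05-fold, adjusted p = 0.00023), and changed by +1.00 in the control cells. CR2, the complement receptor CD21, went from 11.9 and 11.4 to 34.8 and 36.1 CPM (+1.61 ± 0.11), nearly as in the control cells at +1.64. The intermediate filament gene SYNM rose by +1.75 ± 0.23, and the T cell kinase TXK by +1.59 ± 0.26. The zinc finger genes ZNF844 and ZNF493 rose by +2.07 ± 0.30 and +1.54 ± 0.29. The leukotriene receptor CYSLTR2 rose by +1.51 ± 0.25, the proteoglycan SPOCK1 by +1.47 ± 0.30 and the pseudogene ZKSCAN8P1 by +1.44 ± 0.30. RN7SL2, a signal recognition particle RNA, stood at 9.39 and 14.2 against 99.6 and 15.9 CPM, so its rise of +2.29 rested on day 10 replicate 1, and without that library it was +0.43 and not called (adjusted p = 0.357). The call of RN7SL2 ended without either day 8 library too, that of SPOCK1 without any 1 of the 4, that of ZKSCAN8P1 without day 8 replicate 1 or day 10 replicate 2, that of ZNF493 without day 8 replicate 1 and that of CYSLTR2 without day 8 replicate 2 (adjusted p between 0.0541 and 0.196). Among genes of at least 50 CPM, the largest rises were those of DNTT and STAT5A, followed by GAB2, an adaptor of cytokine signalling, from 34.6 and 38.3 to 64.4 and 71.4 CPM (+0.90 ± 0.10), CHI3L2 (+0.88), and YPEL1 from 93.6 and 92.6 to 171 and 168 CPM (+0.87 ± 0.06).

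Of the largest falls, several rested on single libraries. TOMM6, a subunit of the outer mitochondrial import channel, stood at 53.3 and 3.33 CPM at day 8 and at 1.7 and 1.79 CPM at day 10. Its change of -4.02 was -0.93 and not called without day 8 replicate 1 (adjusted p = 0.14). IPO4, an importin, stood at 99.7 and 33.7 against 21.5 and 15.2 CPM, and its change of -1.87 was -0.88 without day 8 replicate 1 (adjusted p = 0.302). DOK3, an adaptor, changed by -1.38 and by -0.92 without day 8 replicate 2 (adjusted p = 0.276). The orphan receptor GPR17 went from 3.81 and 4.96 to 1.35 and 0.844 CPM (-1.99 ± 0.35), the palmitoyltransferase ZDHHC11 from 6.19 and 7.77 to 2.25 and 2.63 CPM (-1.51 ± 0.24), and TMEM52 from 3.27 and 3.71 to 1.22 and 0.979 CPM (-1.66 ± 0.29). The days did not overlap for any of the largest falls, because the rule that named them required it. FN1, fibronectin, fell by 1.51, CSPG5 by 1.40 and the vasopressin receptor AVPR2 by 1.37 on the log2 scale. Beyond TOMM6, IPO4 and DOK3 without the libraries named, the calls of TOMM6, IPO4 and AVPR2 ended without either day 10 library, those of GPR17, TMEM52 and DOK3 without day 10 replicate 2, those of FN1 and CSPG5 without day 10 replicate 1 or either day 8 library, and that of AVPR2 without day 8 replicate 2 (adjusted p between 0.0556 and 0.207). Among genes of at least 50 CPM the largest falls were those of ALDOC, GPI, RRP12 and ENO1, followed by NME1, a nucleoside diphosphate kinase, from 93.8 and 94.5 to 54.1 and 51.5 CPM (-0.83 ± 0.10), and TXNRD1.

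For most genes called in the knockdown cells, the control cells moved in the same direction between the days. With sh-NC 654 of 20099 genes rose (3.25%) and 607 fell (3.02%). Of the 2182 genes called in the knockdown cells, 2021 (92.6%) had a change of the same sign in the control cells, and 732 were also called there in the same direction, which is 33.5% of the knockdown calls and 58% of the control calls. No gene was called in both arms in opposite directions. Among the knockdown calls the median ratio of the control change to the knockdown change was 0.601. Among the control calls the median ratio of the knockdown change to the control change was 0.81. Over 14119 genes of at least 2 CPM the changes of the arms had a Pearson correlation of 0.44 and a Spearman correlation of 0.55 across genes. The comparisons share no library, but they share the pair of deposited tables and the days. They also come from the same fit, with the same filter, scaling and estimate of each gene's spread, so their calls are not independent.

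**Figure D4:**
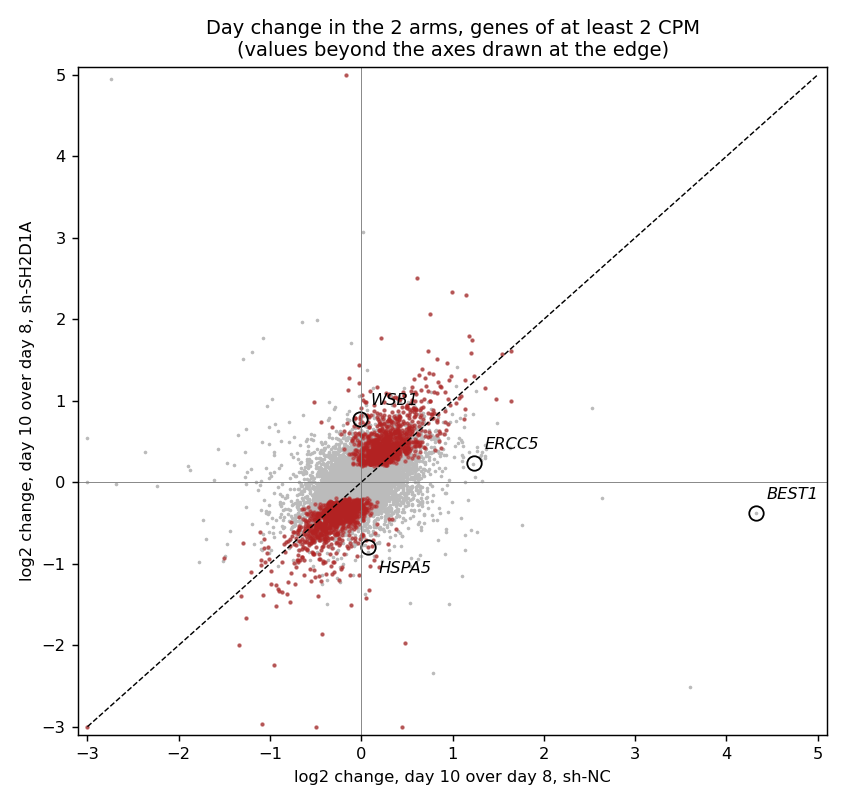
Log2 change of day 10 over day 8 with sh-SH2D1A (vertical axis) against that with sh-NC (horizontal axis) for 14119 genes of at least 2 CPM; red points are called in the knockdown arm and the dashed line marks equal changes. Most red points have the same sign in both arms, and the 4 circled genes HSPA5, WSB1, ERCC5 and BEST1 passed the test of the difference.

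The test of the difference between the arms called 4 of 20099 genes (0.0199%), 1 with the more positive change in the knockdown cells and 3 with the more negative one. At an unadjusted p under 0.05 there were 1799, and the DESeq2 Wald test called 129. HSPA5 is described above. WSB1, a subunit of a ubiquitin ligase (chr17:27294076-27315926), rose in the knockdown cells from 180 and 180 CPM to 313 and 301 CPM (+0.77 ± 0.06, adjusted p = 0.000115). The control libraries held 319 and 339 CPM at day 8 and 317 and 333 CPM at day 10, a change of -0.02. Every knockdown library was below every control library, by a wide margin at day 8 and a narrow one at day 10, and the difference was +0.79 ± 0.08 (adjusted p = 0.0144). Leaving out any 1 of the 8 libraries did not end the call of HSPA5 or WSB1. Without the filter on low counts no gene was called, with HSPA5 and WSB1 at an adjusted p of 0.149.

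The other two called differences came from changes in the control cells. ERCC5, a nuclease of DNA repair (chr13:102807146-102876001), stood at 105 and 98.5 CPM at day 8 and 121 and 118 CPM at day 10 in the knockdown cells, a change of +0.23 ± 0.08 that did not pass (adjusted p = 0.108). In the control cells it went from 54.3 and 45.4 to 114 and 119 CPM, and the difference was -1.0 ± 0.12 (adjusted p = 0.0263). The read-through gene BIVM-ERCC5, which spans ERCC5 on the same strand, held 2460 and 2714 counts in the control libraries of day 8 and 0 counts in the other 6 Jurkat libraries. BEST1, a chloride channel (chr11:61949821-61965515), stood at 1.27 and 1.49 CPM at day 8 and 0.61 and 1.52 CPM at day 10 in the knockdown cells, and at 0.758 and 0.597 against 14.0 and 13.2 CPM in the control cells, a difference of -4.70 ± 0.50 (adjusted p = 0.0144). It overlaps FTH1, the ferritin heavy chain, on the other strand, which held 24951 to 39644 counts a library, and whether counting used strand is not given in the sources used here. The call of ERCC5 ended without control day 10 replicate 2 or without either knockdown day 10 library (adjusted p = 0.102, 0.0844 and 0.105), and that of BEST1 without control day 10 replicate 2 (adjusted p = 0.071).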

How the data were processed

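Total RNA of Jurkat cells was extracted and sequenced on an Illumina instrument, per the labels' protocols. HISAT2 2.2.0, StringTie and the build hg38 are listed, with no role, per the submitters' processing notes. The deposited values are raw counts per Ensembl gene, made by the authors, in 1 table per line and day, and the counting strand is not given in the sources used here. The tables were joined by identifier, and symbols and positions came from the reference tables and GENCODE 29. Groups come from the labels.

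Genes were kept with edgeR's filterByExpr (minimum count 10), scaled by TMM, and fitted with edgeR 4.0.16 (R 4.3.3, limma 3.58.1) as 4 group means over the 8 Jurkat libraries. The quasi-likelihood F-test gave the day change in each arm and their difference, at an adjusted p under 0.05. SE is the size of the log2 change divided by the square root of F. The fit was also run on counts simulated from the model it assumes. That run checked the code and not how well the model holds for these libraries. Alternatives were DESeq2 1.42.0, other scalings and filters, other sets of libraries, a replicate block, and leaving out each library.

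The members and lists were chosen with earlier results of these data known. Genes were named by a rule over called genes with a symbol, at least 2 CPM, days that do not overlap and no read-through symbol: the 10 largest rises and 10 largest falls, the 5 next largest each way at 50 CPM or more, and up to 5 called differences each way. From each of 38 lists it took up to 4 called members with the lowest adjusted p and 2 with the highest level. Other genes were chosen after their values were seen. Same-numbered libraries of the 2 days were not paired by their deviations. Promoters are RefSeq windows of GRCh38.p14. Floors cover counting error only, while the SE also takes in the spread between libraries estimated by the fit. Some genes are not reported here.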

Additional observations from a re-analysis of the deposited data

Results flagged for a closer look

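The day change differed between sh-SH2D1A and sh-NC Jurkat for 4 genes by the test of the difference itself (edgeR's quasi-likelihood F-test). The difference of the log2 changes, knockdown minus control, was -0.87 for HSPA5, 0.79 for WSB1, -1.0 for ERCC5 and -4.70 for BEST1. The knockdown cells moved and the control cells changed by +0.07 and -0.02 for HSPA5 and WSB1. For ERCC5 and BEST1 it was the control cells that changed, by +1.23 and +4.32. Both of the latter overlap other genes whose counts are given above, and the part of read assignment in these differences was not tested.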

How the results depend on the processing

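The 2182 genes called in the knockdown arm became 1442 with all 16 libraries in the fit and 1215 without a filter on low counts, and lay between 611 and 1124 with 1 library left out. The 1261 of the control arm became 1896 by DESeq2, 749 with all 16 libraries, 497 without the filter and 737 with the 4 sh-NC libraries alone, and lay between 192 and 661 with 1 left out. The 4 called differences became 129 by DESeq2, 1 with all 16 libraries and 0 without the filter (2158 at an unadjusted p under 0.05), and lay between 4 and 17 with 1 left out. The cause of these shifts was not tested. The fits with 1 library left out held fewer libraries and also tested more genes, 21210 to 21339 against 20099. With all 16 libraries the adjusted p of WSB1 was 0.109, of BEST1 0.697 and of ERCC5 0.733.

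With the replicate number as a block, the counts were 1790, 860 and 4. Deviations of libraries with equal numbers had correlations of 0.040 in the knockdown arm and 0.029 in the control arm, so the numbers were not taken to pair the libraries.

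Of 151 named genes called in the knockdown arm, 73 kept the call under every alternative and 78 lost it under at least 1, 37 of them only with a library left out. None of the 197 named genes reversed, and 7 that were not called gained a call under an alternative. Under 1 CPM 0.986% of genes were called, and what depth and the number of libraries limit there was not tested.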

Other observations

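The gene families given here were picked after their values were seen. Over all tested genes 5.41% rose and 5.45% fell. Calls in either direction covered 14.7% of genes at 10 to 100 CPM and 26% of those at 100 CPM or more. The called members had a median level of 122 CPM for the proteasome and 342 CPM for the CCT chaperonin. Of 42 tested proteasome subunit genes 15 fell and none rose in the knockdown cells, with a median of -0.18, among them PSMD3 at -0.38 and PSMA7 at -0.37. Of 9 subunits of the CCT chaperonin, which folds actin and tubulin, 6 fell, led by CCT2 at -0.39. Of 36 RNA polymerase subunit genes 12 fell and none rose, including POLR1B at -0.68 and POLR1A at -0.49 of polymerase I, which transcribes ribosomal RNA. Of 53 DEAD and DEAH box helicase genes 18 fell and 2 rose, with DHX37 at -0.66 and the nucleolar helicase DDX21 at -0.54. Of 7 protein arginine methyltransferase genes 5 fell, PRMT6 by 0.54 and PRMT5 by 0.35 on the log2 scale.

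Of 394 tested zinc finger genes 33 rose and 8 fell, with a median of +0.08 against 0.00 over all genes, of which 5.41% rose and 5.45% fell. Most of the family was not called. ZNF844 and ZNF493 changed most, and ZNF730 rose by +0.89 and ZNF460 by +0.87. In the control cells 16 rose and 6 fell, with a median of +0.05. For these families the counts in the control cells were 8 fallen proteasome genes, 7 fallen CCT genes, 5 fallen and 1 risen polymerase genes, 11 fallen and 1 risen helicase genes and 3 fallen methyltransferase genes.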
